A study of Caenorhabditis elegans with 20 samples.

Results

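The response to curcumin that *ahr-1(ju145)* and wild-type worms had in common was estimated from 19 of the 20 arrays of the series. It is the treatment term of an additive model, in which the log2 value of each probe set depends on the treatment, the strain and the replicate number, so that a single change is fitted to both strains together. RNA of whole *Caenorhabditis elegans* had been hybridised to Affymetrix gene arrays, and all 29317 probe sets were tested. The groups were *ahr-1(ju145)* worms (strain CZ2485) with curcumin (4 arrays), wild-type worms (strain N2) with curcumin (5 arrays), *ahr-1(ju145)* with DMSO (5 arrays) and wild-type with DMSO (5 arrays). From the egg to day 3 the worms grew on plates that held either curcumin at 100 µM or the vehicle DMSO at 0.1%. The array left out was replicate 5 of curcumin-treated *ahr-1(ju145)*, which the study's methods exclude for its quality measures. Each replicate was a pool of many worms, and the mutant is represented by a single allele of *ahr-1*. The *ahr-1* transcript read 4.27 to 4.98 in the *ahr-1(ju145)* arrays and 4.86 to 5.45 in the wild-type arrays, and these ranges overlap. Levels here and below are log2 RMA values, and changes are log2 differences between curcumin and DMSO with their standard error. What the allele changes in the gene is not given in the labels, so this level does not check the genotype.

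Curcumin is a polyphenol of turmeric. Worms handle such foreign compounds largely in the gut, in successive steps. Cytochrome P450s and short-chain dehydrogenases first add or uncover a reactive group, UDP-glucuronosyltransferases and glutathione S-transferases then attach a sugar or glutathione, and ABC transporters export the product. SKN-1, the worm counterpart of Nrf2, switches on many glutathione genes under oxidative stress, and *gst-4* is its usual reporter gene. AHR-1 is the worm counterpart of the mammalian aryl hydrocarbon receptor, which controls P450 genes in mammals. The gut is also where worms meet bacteria, and it makes the C-type lectins, lysozymes and other secreted proteins of their innate immunity.

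The arrays were similar to each other in the values used here. Array medians lay between 4.22 and 4.30, and the mean correlation of an array with the others of its group was 0.990 to 0.993. Of the markers of tissue and stage, vitellogenins (yolk proteins of the adult hermaphrodite gut) averaged 13.06 to 13.23 in *ahr-1(ju145)* with curcumin, 13.07 to 13.20 in wild-type with curcumin, 13.08 to 13.24 in *ahr-1(ju145)* with DMSO and 13.11 to 13.22 in wild-type with DMSO, near the top of the measured range of 1.52 to 14.3, and 0 of the 5 vitellogenin genes passed the test. Germline and oocyte, sperm, muscle and neuron markers also had 0 members that passed. The neuron markers had a median change of 0.10, with 11 of 12 above 0 and 3 at an unadjusted p under 0.05. Of 51 sperm markers, 5 were higher and 0 lower at that level, the largest change being 0.75, with 25 above 0 and 26 below. The lists with members that passed are given further on. In RNA of whole worms, fewer cells of a type and less RNA per cell cannot be told apart.

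With curcumin, 517 probe sets were higher (1.76% of those tested) and 354 were lower (1.21%), at a limma adjusted p under 0.1 over all probe sets. Counted as genes with a single symbol, 488 of 25478 were higher and 313 lower. The largest rise was that of *pgp-1*, an ABC transporter, at 5.68-fold, and the largest fall that of *irg-5*, a gene of the response to bacteria, at 0.284 of the DMSO level. Most changes were small. The median log2 change of the called probe sets was 0.31 for those higher and -0.35 for those lower, beside -0.003 over all probe sets and a median standard error of 0.074. A log2 change of at least 1 was reached by 19 of the higher and 9 of the lower probe sets, and one of at least 0.5 by 98 and 71. Without any adjustment, 1703 probe sets were higher and 1749 lower at a p under 0.05, and counted as genes with a symbol 1555 were higher and 1490 lower.

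The 871 were chosen by the common term fitted to these same arrays, so their signs, the strains' own p-values and the pairs given next are a description of them and no separate support. All 871 called probe sets had the same sign in *ahr-1(ju145)* and in wild-type, and 670 reached an unadjusted p under 0.05 in each strain on its own. The median change of the higher ones was 0.29 in *ahr-1(ju145)* and 0.34 in wild-type, and that of the lower ones -0.32 and -0.37. Comparing each curcumin array with the DMSO array of the same strain and replicate number gives 9 pairs, and 428 of the called probe sets moved in the called direction in all 9. The arrays of the treatments did not overlap in either strain for 46 probe sets that were higher in both strains (0.157% of those tested) and 5 that were lower in both (0.0171%). The difference between the strains' changes passed the test for 0 probe sets (0%), with a lowest adjusted p of 0.759. Unadjusted, 1240 of the 29317 probe sets had a p under 0.05 for that difference, and 23 of them were among the 871. That is below the share that a threshold of 0.05 passes where there is no difference. The genes with the lowest p for the difference were not among the called ones. *nhr-239*, a nuclear hormone receptor, changed by -0.11 ± 0.071 in *ahr-1(ju145)* and 0.41 ± 0.066 in wild-type, *F56E3.10* by -0.52 ± 0.094 in *ahr-1(ju145)* and 0.16 ± 0.087 in wild-type and *T26C5.2* by 0.43 ± 0.14 in *ahr-1(ju145)* and -0.51 ± 0.13 in wild-type, each with SE and an adjusted p for the difference above 0.1. The absence of calls does not show that the changes were equal, since the median standard error of the difference was 0.148 on the log2 scale.

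**Figure D1:**
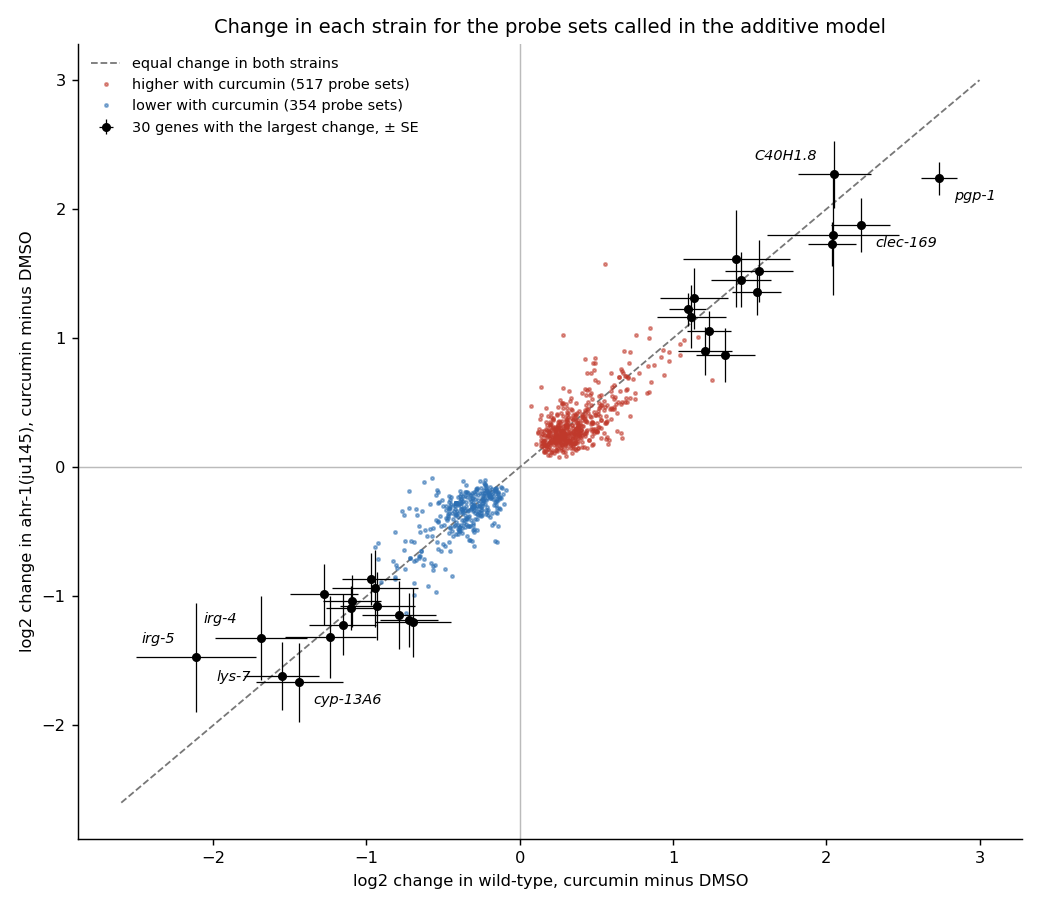
Log2 change with curcumin in *ahr-1(ju145)* (vertical axis) against that in wild-type (horizontal axis) for the 517 higher (red) and 354 lower (blue) probe sets. Black points are the 30 named genes with the largest change, with standard errors, and all called probe sets lie in the quadrants where both strains changed the same way.

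Of the transporters that export compounds, *pgp-1* stood far apart. *pgp-1* encodes a P-glycoprotein of the gut membrane. In replicate order, it read 9.36, 8.77, 9.19 and 8.52 in *ahr-1(ju145)* with curcumin and 9.44, 9.10, 9.33, 8.81 and 8.89 in wild-type with curcumin, against 7.06, 6.53, 6.72, 6.39 and 6.80 in *ahr-1(ju145)* with DMSO and 6.36, 6.45, 6.36, 6.47 and 6.24 in wild-type with DMSO. Every array with curcumin lay well above every array with DMSO. The change was 2.51 ± 0.10 (adjusted p = 3.77e-09), and it was 2.24 ± 0.13 in *ahr-1(ju145)* and 2.74 ± 0.12 in wild-type (unadjusted p for the difference 0.0112, adjusted p 1). Of 50 ABC transporters measured, 9 rose and 0 fell (18% and 0%), beside 1.92% higher and 1.23% lower of all genes with a symbol. Their median change was 0.03 beside -0.001 over all those genes. These shares of all genes are the background for each list count below. The other ABC transporters that rose did so by much less. *mrp-3*, of the multidrug resistance protein class, rose by 0.52 ± 0.084 (adjusted p = 0.00348), *pmp-1* of the peroxisome by 0.41 ± 0.075 (adjusted p = 0.00928) and *abt-4* by 0.33 ± 0.059 (adjusted p = 0.00822). *haf-4* and *haf-9*, ABC transporters of gut granules, rose by 0.22 ± 0.056 and 0.24 ± 0.053, and *pgp-3*, *pgp-9* and *mrp-7* by 0.26 ± 0.067, 0.29 ± 0.079 and 0.17 ± 0.041. Without the replicate number in the model, 4 of the 9 passed. Among 33 solute carriers, 3 rose and 0 fell, led by *slc-17.5* with 0.46 ± 0.086 (adjusted p = 0.0108). Its change of 0.23 ± 0.10 in *ahr-1(ju145)* and 0.67 ± 0.093 in wild-type had an unadjusted p of 0.00614 for the difference and an adjusted p of 1.

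Of 46 glutathione S-transferases measured, 9 rose and 0 fell, with a median change of 0.12. These are 19.6% and 0%, beside 1.92% and 1.23% of all genes with a symbol. *gst-4* read 8.51, 8.49, 8.59 and 7.40 in *ahr-1(ju145)* with curcumin and 8.18, 8.15, 8.44, 7.24 and 7.23 in wild-type with curcumin, against 6.46, 7.11, 7.28, 7.01 and 6.35 in *ahr-1(ju145)* with DMSO and 6.20, 6.77, 6.99, 6.93 and 6.67 in wild-type with DMSO. Replicates 4 and 5 with curcumin were lower than replicates 1 to 3 with curcumin, and the treatments did not overlap within a strain. The change was 1.22 ± 0.16 (adjusted p = 0.0008), which is 2.32-fold. *gst-30* ranged from 4.71 to 6.11 with curcumin (median 5.54) and from 4.35 to 4.97 with DMSO (median 4.68), *gst-6* from 6.42 to 7.57 with curcumin (median 7.20) and from 5.86 to 7.02 with DMSO (median 6.33) and *gst-5* from 3.90 to 4.64 with curcumin (median 4.41) and from 3.34 to 4.05 with DMSO (median 3.73). They rose by 0.80 ± 0.12 (adjusted p = 0.00283), 0.77 ± 0.10 (adjusted p = 0.00099) and 0.59 ± 0.094 (adjusted p = 0.00334). The other 5 were *gst-38*, *gst-13*, *gst-7*, *gst-16* and *gst-36*, with changes from 0.18 to 0.57. *gst-6* and *gst-7* lie next to each other on chromosome II. Of the 46 genes, 5 passed without the replicate number. The wider list of 25 genes of SKN-1 and of glutathione defence had 8 higher and 0 lower, with a median of 0.09, and 6 of these 8 are the transferases above. The remaining called members were *nit-1*, a nitrilase, with 0.35 ± 0.084 (adjusted p = 0.048), and *sdz-8* with 0.30 ± 0.068 (adjusted p = 0.0346). *gcs-1*, the first enzyme of glutathione synthesis, had a change of 0.15 ± 0.043 and an adjusted p of 0.108, and *gsr-1*, *gss-1*, *skn-1* and its inhibitor *wdr-23* had changes between -0.02 and 0.04 with adjusted p of at least 0.752. Thioredoxins, thioredoxin reductases and peroxiredoxins of the list had changes between -0.0018 (*trxr-2*) and 0.09 (*trx-2*) and did not pass, nor did any of the 8 superoxide dismutases and catalases.

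UDP-glucuronosyltransferases, which attach sugars, moved in both directions. Of 67 measured, 8 were higher and 4 lower, with a median of 0.04. These are 11.9% and 5.97%, beside 1.92% and 1.23% of all genes with a symbol. *ugt-48* read 7.65, 6.92, 7.18 and 6.97 in *ahr-1(ju145)* with curcumin and 7.28, 6.99, 7.26, 7.04 and 6.52 in wild-type with curcumin, against 5.90, 6.29, 6.10, 6.38 and 5.92 in *ahr-1(ju145)* with DMSO and 6.13, 5.90, 6.09, 6.36 and 5.37 in wild-type with DMSO. It was higher in every curcumin array than in every DMSO array, by 1.005 ± 0.10 (adjusted p = 7.10e-05). *ugt-21* depended on the replicate number in every group. It read 5.80, 5.45, 6.49 and 5.68 in *ahr-1(ju145)* with curcumin and 5.69, 4.91, 6.78, 5.96 and 5.47 in wild-type with curcumin, against 4.19, 3.996, 5.91, 5.11 and 4.56 in *ahr-1(ju145)* with DMSO and 4.40, 4.54, 6.53, 4.95 and 4.57 in wild-type with DMSO, so that the DMSO arrays numbered 3 were above most curcumin arrays with other numbers. Within a pair it was higher in 9 of 9, with a change of 0.88 ± 0.13 (adjusted p = 0.00167), but its adjusted p was 0.214 without the replicate number. *ugt-19* and *ugt-9* rose by 0.66 ± 0.10 (adjusted p = 0.00172) and 0.40 ± 0.066 (adjusted p = 0.00424), and *ugt-16*, *ugt-62*, *ugt-2* and *ugt-13* by 0.47 to 0.61. For *ugt-9* the change was 0.22 ± 0.075 in *ahr-1(ju145)* and 0.56 ± 0.070 in wild-type, with an unadjusted p of 0.00447 for the difference and an adjusted p of 1. *ugt-57* fell by 0.78 ± 0.12 (adjusted p = 0.0022), and ranged from 4.52 to 7.24 with curcumin (median 5.45) and from 5.57 to 7.41 with DMSO (median 6.45). *ugt-53*, *ugt-61* and *ugt-22* fell by 0.63, 0.48 and 0.39. *ugt-29* changed by 0.0029 ± 0.074 in *ahr-1(ju145)* and 0.39 ± 0.068 in wild-type and *ugt-45* by 0.01 ± 0.10 in *ahr-1(ju145)* and 0.30 ± 0.092 in wild-type, and in the common term they were at 0.21 ± 0.069 and 0.17 ± 0.075 with adjusted p of 0.175 and 0.395. In the fit without the replicate number, 3 UDP-glucuronosyltransferases were higher and 1 lower. Carboxylesterases had 2 of 35 higher (5.71%), *cest-4* with 0.71 ± 0.077 (adjusted p = 0.000155) and *cest-13* with 0.26 ± 0.065 (adjusted p = 0.064). Short-chain dehydrogenases had 1 of 30 lower (3.33%), *dhs-27* with -0.30 ± 0.072 (adjusted p = 0.0419). Over all genes with a symbol 1.92% were higher and 1.23% lower, and 1 call among 30 lies near the latter share.

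**Figure D2:**
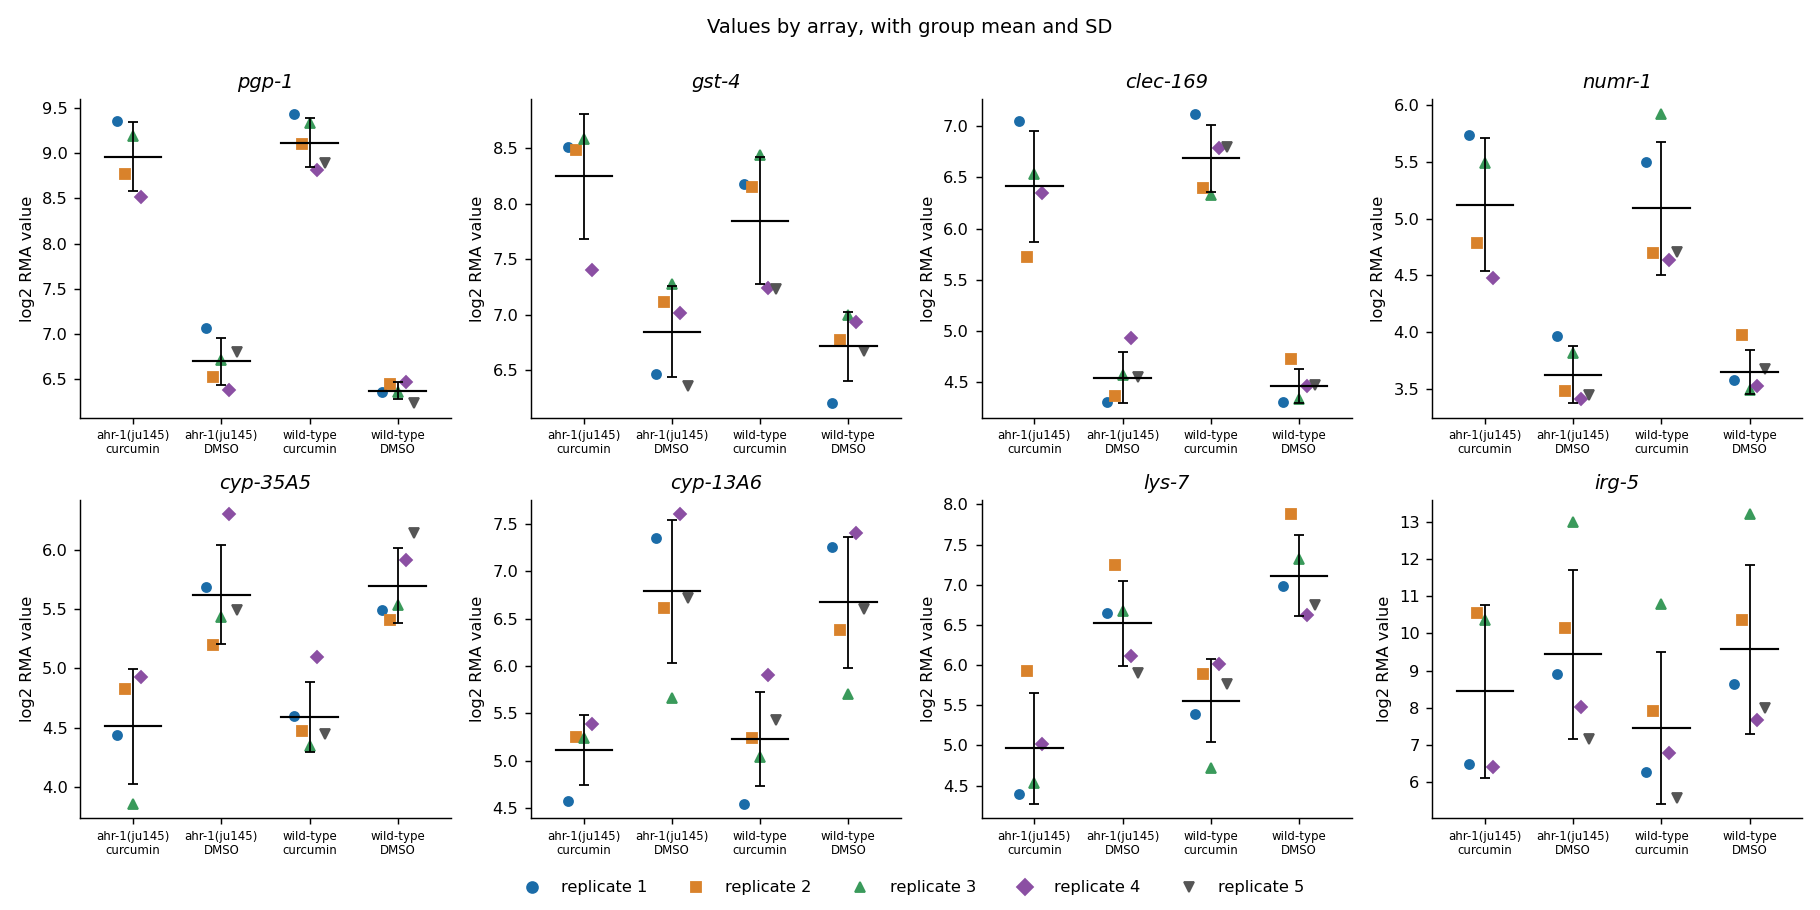
Log2 RMA values (vertical axes) of 8 genes in the 19 arrays, by group, with the mean and SD of each group (line and bar). Colour and shape give the replicate number. *pgp-1*, *gst-4*, *clec-169* and *numr-1* lie above their DMSO arrays in both strains, *cyp-35A5* lies below them, and *irg-5* differs more between replicate numbers than between treatments.

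Cytochrome P450 genes were split by family. Of 74 measured, 6 were higher and 8 lower, with a median of -0.0025. These are 8.11% and 10.8%, beside 1.92% and 1.23% of all genes with a symbol. The falls lay mostly in family 35, whose genes are known as targets of many foreign compounds. Of its 10 measured members 5 fell and 0 rose, and the family's median change was -0.66. *cyp-35A5* read 4.44, 4.83, 3.86 and 4.93 in *ahr-1(ju145)* with curcumin and 4.60, 4.47, 4.35, 5.10 and 4.45 in wild-type with curcumin, against 5.68, 5.20, 5.43, 6.30 and 5.49 in *ahr-1(ju145)* with DMSO and 5.49, 5.41, 5.53, 5.91 and 6.14 in wild-type with DMSO. The treatments did not overlap, and the fall was 1.10 ± 0.11 (adjusted p = 7.96e-05). *cyp-35D1* read 4.42, 4.10, 4.18 and 4.12 in *ahr-1(ju145)* with curcumin and 4.02, 4.21, 4.19, 4.43 and 4.000 in wild-type with curcumin, against 5.69, 4.46, 5.05, 6.42 and 5.57 in *ahr-1(ju145)* with DMSO and 4.998, 5.13, 5.06, 5.90 and 5.53 in wild-type with DMSO. Its curcumin arrays lay within a narrow band below all of the DMSO arrays, and it fell by 1.19 ± 0.16 (adjusted p = 0.000832). *cyp-35A2* ranged from 4.73 to 7.03 with curcumin (median 5.72) and from 6.23 to 7.60 with DMSO (median 6.73), *cyp-35C1* from 5.65 to 8.13 with curcumin (median 6.27) and from 7.19 to 8.37 with DMSO (median 7.56) and *cyp-35A3* from 3.06 to 4.58 with curcumin (median 3.42) and from 3.27 to 5.59 with DMSO (median 4.44). These ranges overlapped, while all 9 pairs were lower for each of the 3 genes, and the changes were -1.14 ± 0.16 (adjusted p = 0.00139), -1.07 ± 0.14 (adjusted p = 0.000586) and -0.94 ± 0.20 (adjusted p = 0.0223). The members that did not pass were *cyp-35A1*, *cyp-35A4*, *cyp-35B1*, *cyp-35B2* and *cyp-35B3*. Their mean values over the arrays lay between 2.86 and 3.09, near the low end of the measured range, against 4.03 to 7.17 for those that fell.

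Family 13 held changes in both directions. *cyp-13A6* read 4.57, 5.25, 5.24 and 5.39 in *ahr-1(ju145)* with curcumin and 4.55, 5.24, 5.04, 5.90 and 5.43 in wild-type with curcumin, against 7.35, 6.61, 5.66, 7.60 and 6.71 in *ahr-1(ju145)* with DMSO and 7.25, 6.38, 5.71, 7.41 and 6.61 in wild-type with DMSO. It was lower in 9 of 9 pairs and fell by 1.54 ± 0.20 (adjusted p = 0.000832), which is 0.343 of the DMSO level. *cyp-13A5*, its neighbour on chromosome II, read 4.503, 4.27, 4.60 and 4.31 in *ahr-1(ju145)* with curcumin and 4.88, 4.897, 5.63, 4.54 and 5.35 in wild-type with curcumin, against 3.38, 3.36, 4.03, 3.92 and 3.04 in *ahr-1(ju145)* with DMSO and 3.64, 3.96, 3.90, 4.46 and 4.11 in wild-type with DMSO. This gene was higher in 9 of 9 pairs and rose by 0.96 ± 0.14 (adjusted p = 0.00203). *cyp-13A12* and *cyp-13A2* also rose, by 0.61 ± 0.13 (adjusted p = 0.0259) and 0.44 ± 0.12 (adjusted p = 0.0783), while *cyp-13A8* (0.35 ± 0.13, adjusted p = 0.274) and *cyp-13B1* (-0.09 ± 0.073, adjusted p = 0.725) did not pass. Outside these families, *cyp-14A2*, *cyp-33C8* and *cyp-34A10* rose by 0.50, 0.50 and 0.43. *cyp-25A1* fell by 0.94 ± 0.15 (adjusted p = 0.00329) and *cyp-29A2* by 0.27. *cyp-42A1* had a change of 0.0036 ± 0.10. Without the replicate number, 2 of the 6 rises and 6 of the 8 falls passed. Close relatives make up these families, as they do the UDP-glucuronosyltransferases and lectins, and how far a probe set takes up RNA of a relative was not tested.

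**Figure D3:**
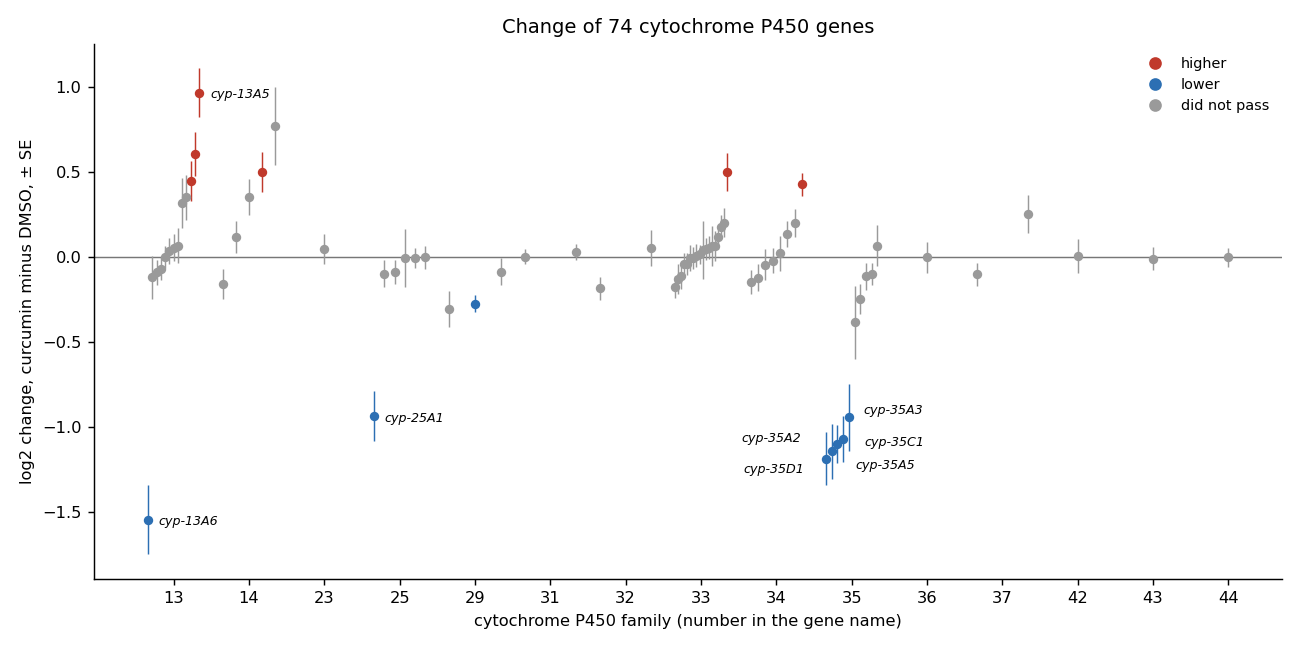
Log2 change with curcumin, with standard error (vertical axis), of the 74 cytochrome P450 genes by family (horizontal axis). Red points were higher, blue points lower and grey points did not pass; family 35 holds 5 of the 8 that fell, and *cyp-13A5* and *cyp-13A6* lie at opposite ends of family 13.

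Among genes that bind or move metals, 4 of 19 measured were higher and 1 lower, with a median of -0.02. *numr-1*, a nuclear gene induced by heavy metals, read 5.73, 4.79, 5.49 and 4.48 in *ahr-1(ju145)* with curcumin and 5.50, 4.70, 5.92, 4.63 and 4.71 in wild-type with curcumin, against 3.97, 3.48, 3.81, 3.41 and 3.45 in *ahr-1(ju145)* with DMSO and 3.58, 3.98, 3.49, 3.53 and 3.67 in wild-type with DMSO. It did not overlap between the treatments and rose by 1.45 ± 0.14 (adjusted p = 5.55e-05), or 2.73-fold, with 1.45 ± 0.21 in *ahr-1(ju145)* and 1.44 ± 0.20 in wild-type. Its relative *numr-2* had a change of 0.03 ± 0.081. The cadmium-responsive genes *cdr-2* and *cdr-4* rose by 0.58 ± 0.10 (adjusted p = 0.00909) and 0.53 ± 0.12 (adjusted p = 0.031), whereas *cdr-1* fell by 0.37 ± 0.10 (adjusted p = 0.0833). *hmt-1*, an ABC transporter that confers tolerance to cadmium, was counted here and not among the 50 above, and rose by 0.25 ± 0.049 (adjusted p = 0.014). The metallothioneins *mtl-1* and *mtl-2* had -0.04 ± 0.12 and -0.35 ± 0.16 and did not pass. Without the replicate number, 2 of the 5 passed.

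Several of the largest rises were in genes known here by sequence name alone. *C40H1.8* read 7.21, 6.19, 7.28 and 7.20 in *ahr-1(ju145)* with curcumin and 7.10, 5.94, 7.27, 7.01 and 6.72 in wild-type with curcumin, against 4.96, 4.22, 4.08, 5.63 and 4.56 in *ahr-1(ju145)* with DMSO and 4.10, 4.38, 4.89, 5.56 and 4.85 in wild-type with DMSO, and replicate 2 was the lowest curcumin array in each strain. *ZK742.3* read 9.08, 8.72, 8.73 and 8.32 in *ahr-1(ju145)* with curcumin and 9.07, 8.76, 8.86, 8.66 and 8.74 in wild-type with curcumin, against 6.56, 7.53, 7.12, 6.85 and 6.62 in *ahr-1(ju145)* with DMSO and 6.64, 6.97, 6.77, 6.94 and 6.57 in wild-type with DMSO. Neither gene overlapped between the treatments, and the changes were 2.15 ± 0.17 (adjusted p = 7.46e-06) and 1.90 ± 0.12 (adjusted p = 6.91e-07). *H43E16.1*, *F09C8.1* and *F58B4.5* also rose in every pair, by 1.46 ± 0.12 (adjusted p = 7.46e-06), 1.15 ± 0.086 (adjusted p = 3.78e-06) and 1.15 ± 0.10 (adjusted p = 2.49e-05). *T16G1.4* rose by 1.14 ± 0.16 (adjusted p = 0.00126), *C32H11.4* by 1.07 ± 0.13 (adjusted p = 0.000404) and *T19C9.8* by 0.90 ± 0.14 (adjusted p = 0.00238). A further pair varied more between arrays. *B0024.4* read 5.70, 5.26, 6.13 and 3.82 in *ahr-1(ju145)* with curcumin and 5.69, 6.21, 6.99, 4.27 and 3.82 in wild-type with curcumin, against 2.75, 3.40, 3.43, 3.68 and 2.93 in *ahr-1(ju145)* with DMSO and 2.61, 3.97, 3.52, 3.73 and 2.94 in wild-type with DMSO, and its curcumin arrays numbered 4 and 5 were among or just above the DMSO arrays. *B0205.13* ranged from 6.08 to 8.06 with curcumin (median 7.11) and from 4.47 to 6.83 with DMSO (median 5.60). They rose by 1.93 ± 0.31 (adjusted p = 0.00333) and 1.51 ± 0.25 (adjusted p = 0.00461), but *B0024.4* had an adjusted p of 0.252 and *B0205.13* one of 0.289 once the mean of the molting markers, described further on, was a covariate.

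Genes that the gut induces on infection moved strongly in both directions. Of 17 pathogen-response effectors measured, 8 were higher and 3 lower, and the median change was 0.29. *dod-24*, a CUB-like domain gene of the immune response, read 10.71, 10.61, 10.43 and 9.09 in *ahr-1(ju145)* with curcumin and 10.62, 10.77, 10.45, 9.37 and 9.29 in wild-type with curcumin, against 8.65, 10.13, 8.99, 7.38 and 6.89 in *ahr-1(ju145)* with DMSO and 8.42, 10.08, 8.95, 7.74 and 7.51 in wild-type with DMSO. The arrays numbered 4 and 5 were the lowest in each group. It was higher in 9 of 9 pairs, with a change of 1.54 ± 0.16 (adjusted p = 7.96e-05), and its adjusted p was 0.0799 without the replicate number. *mul-1*, a mucin-like gene, read 5.25, 4.67, 5.62 and 4.27 in *ahr-1(ju145)* with curcumin and 5.79, 4.99, 6.002, 4.95 and 5.01 in wild-type with curcumin, against 4.25, 4.10, 3.65, 4.23 and 3.83 in *ahr-1(ju145)* with DMSO and 4.14, 3.99, 4.36, 3.83 and 3.70 in wild-type with DMSO. It rose by 1.12 ± 0.15 (adjusted p = 0.00103), with 0.87 ± 0.21 in *ahr-1(ju145)* and 1.34 ± 0.20 in wild-type. *dod-17*, *dod-19* and *cld-9* rose by 0.70 ± 0.12 (adjusted p = 0.00599), 0.60 ± 0.059 (adjusted p = 6.12e-05) and 0.55 ± 0.062 (adjusted p = 0.000214), and *C17H12.8*, *hpo-6* and *irg-7* by 0.45, 0.40 and 0.29.

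*irg-5* and *irg-4*, infection response genes, fell. *irg-5* read 6.47, 10.55, 10.36 and 6.39 in *ahr-1(ju145)* with curcumin and 6.27, 7.90, 10.79, 6.77 and 5.57 in wild-type with curcumin, against 8.90, 10.14, 12.99, 8.01 and 7.15 in *ahr-1(ju145)* with DMSO and 8.64, 10.35, 13.22, 7.66 and 7.997 in wild-type with DMSO. Replicate 3 was the highest wild-type array with curcumin and the highest of each DMSO group, near the top of the measured range with DMSO. In *ahr-1(ju145)*, replicate 2 with curcumin was above replicate 2 with DMSO, and this was the only pair of the 9 that was not lower. *irg-4* read 5.24, 7.39, 7.20 and 5.87 in *ahr-1(ju145)* with curcumin and 4.84, 5.11, 7.08, 6.04 and 4.86 in wild-type with curcumin, against 6.80, 7.51, 9.40, 7.33 and 6.45 in *ahr-1(ju145)* with DMSO and 6.32, 7.16, 9.72, 7.11 and 6.06 in wild-type with DMSO and was lower in 9 of 9 pairs. The changes were -1.82 ± 0.29 (adjusted p = 0.00335) and -1.52 ± 0.22 (adjusted p = 0.00169). Without the replicate number the adjusted p was 0.588 for *irg-5* and 0.253 for *irg-4*, so both calls rest on setting arrays of the same number against each other. *sysm-1* fell by 0.65 ± 0.14 (adjusted p = 0.0264). *irg-1*, *irg-2*, *irg-3* and *irg-6* had changes from -0.11 to 0.32 and did not pass. In the fit without the replicate number, 6 effectors were higher and 0 lower.

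Of 16 lysozymes, *lys-7* alone passed. It read 4.39, 5.92, 4.53 and 5.02 in *ahr-1(ju145)* with curcumin and 5.40, 5.89, 4.72, 6.01 and 5.76 in wild-type with curcumin, against 6.65, 7.24, 6.67, 6.12 and 5.91 in *ahr-1(ju145)* with DMSO and 6.99, 7.88, 7.32, 6.62 and 6.75 in wild-type with DMSO. In *ahr-1(ju145)*, replicate 2 with curcumin just exceeded the lowest DMSO array, while the wild-type arrays did not overlap between the treatments. *lys-7*, which digests bacterial cell walls, fell by 1.58 ± 0.18 (adjusted p = 0.000186) to 0.334 of the DMSO level, with -1.62 ± 0.27 in *ahr-1(ju145)* and -1.55 ± 0.25 in wild-type. The other 15 lysozymes changed by -0.23 to 0.26. C-type lectins, secreted sugar-binding proteins, had 23 of 247 higher and 4 lower and a median of 0.0015. These are 9.31% and 1.62%, beside 1.92% and 1.23% of all genes with a symbol. In number they were the most calls of any list, but shorter lists had larger shares, such as 19.6% of glutathione S-transferases and 25% of gut proteases higher. *clec-169* read 7.05, 5.73, 6.53 and 6.35 in *ahr-1(ju145)* with curcumin and 7.12, 6.40, 6.33, 6.79 and 6.80 in wild-type with curcumin, against 4.31, 4.36, 4.57, 4.94 and 4.55 in *ahr-1(ju145)* with DMSO and 4.31, 4.73, 4.34, 4.46 and 4.47 in wild-type with DMSO, with no overlap between the treatments and a change of 2.06 ± 0.14 (adjusted p = 2.50e-06). *clec-57* rose by 0.84 ± 0.10 (adjusted p = 0.000465) and *clec-17* by 0.96 ± 0.18 (adjusted p = 0.0133), each without overlap within a strain. *clec-62* and *clec-63*, neighbours on chromosome II, rose by 0.45 ± 0.063 and 0.31 ± 0.051, and the other 18 that were higher rose by 0.20 to 0.56. *clec-78* fell by 0.77 ± 0.17 (adjusted p = 0.0268). Without the replicate number, 12 lectins were higher and 2 lower. Antimicrobial peptides had 3 of 87 higher and 2 lower, 3.45% and 2.3% beside 1.92% and 1.23% of all genes with a symbol. The furthest changed in each direction were the saposin-like *spp-18* with 0.81 ± 0.090 (adjusted p = 0.000186) and *spp-14* with -0.31 ± 0.060 (adjusted p = 0.0139). Of 37 genes of the intracellular pathogen response, *pals-23* and *pals-36* rose, by 0.33 ± 0.087 and 0.26 ± 0.070. They make up 5.41% of that list, beside 1.92% of all genes with a symbol.

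Genes of fat and of protein digestion also changed. In the lipid metabolism list 9 of 89 were higher and 3 lower, with a median of 0.04. *fat-7*, a desaturase that makes oleic acid, read 5.40, 7.38, 6.997 and 7.07 in *ahr-1(ju145)* with curcumin and 6.17, 6.99, 7.76, 7.73 and 6.68 in wild-type with curcumin, against 6.79, 7.67, 8.33, 7.51 and 7.27 in *ahr-1(ju145)* with DMSO and 7.36, 8.14, 8.98, 7.89 and 7.83 in wild-type with DMSO. It was lower in 9 of 9 pairs and fell by 0.92 ± 0.13 (adjusted p = 0.00169), although the groups overlapped and the adjusted p was 0.185 without the replicate number. *acdh-2*, an acyl-CoA dehydrogenase, fell by 0.67 ± 0.15 (adjusted p = 0.0304) and the desaturase *fat-3* by 0.17. The lipases *lipl-1* and *lipl-2* rose by 0.84 ± 0.12 (adjusted p = 0.00145) and 0.41 ± 0.076 (adjusted p = 0.0093), and *lbp-8*, a lipid-binding protein of the lysosome pathway, by 0.54 ± 0.10 (adjusted p = 0.0133). The elongases *elo-2*, *elo-5* and *elo-6* rose by 0.25, 0.24 and 0.22. Of 28 gut proteases 7 were higher and 3 lower. The aspartyl proteases *asp-8* and *asp-14* rose by 0.70 ± 0.067 (adjusted p = 5.61e-05) and 0.66 ± 0.10 (adjusted p = 0.00172) and the cathepsin *cpr-4* by 0.49 ± 0.067 (adjusted p = 0.00107), while *asp-17* fell by 0.79 ± 0.11 (adjusted p = 0.0011) and *cpr-1* and *cpz-1* by 0.47 and 0.34. The fit without the replicate number called 1 gene of the lipid list, and 0 proteases higher and 1 lower.

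*pud-3* and *pud-4*, neighbours on chromosome V first found as proteins raised in long-lived *daf-2* mutants, fell together. *pud-4* read 5.28, 6.62, 3.92 and 4.25 in *ahr-1(ju145)* with curcumin and 6.14, 6.72, 4.77, 4.85 and 6.08 in wild-type with curcumin, against 7.90, 7.65, 6.01, 4.08 and 6.08 in *ahr-1(ju145)* with DMSO and 7.71, 8.16, 6.16, 5.72 and 6.99 in wild-type with DMSO. It was lower with curcumin in 8 of 9 pairs, and replicate 4 of *ahr-1(ju145)* was the exception. The changes were -1.27 ± 0.21 (adjusted p = 0.00463) and -0.995 ± 0.17 (adjusted p = 0.00689), with adjusted p of 0.316 and 0.32 without the replicate number. O-acyltransferases had 1 of 55 higher and 3 lower, 1.82% and 5.45% beside 1.92% and 1.23% of all genes with a symbol. The share that was higher thus lies near that of all genes. *oac-14* read 6.46, 5.75, 5.79 and 5.78 in *ahr-1(ju145)* with curcumin and 6.68, 6.17, 7.08, 6.19 and 6.59 in wild-type with curcumin, against 5.07, 5.03, 5.14, 6.18 and 4.91 in *ahr-1(ju145)* with DMSO and 4.61, 5.04, 5.48, 5.74 and 5.56 in wild-type with DMSO, and rose by 0.99 ± 0.20 (adjusted p = 0.0172). *oac-20* did not overlap between the treatments within a strain and fell by 0.83 ± 0.10 (adjusted p = 0.000342), *oac-6* fell by 0.95 ± 0.18 (adjusted p = 0.0108) and *oac-31* by 0.56. *asah-1*, an acid ceramidase, rose by 0.58 ± 0.066 (adjusted p = 0.000221) without overlap. It was listed with the genes of DAF-16, the insulin-regulated factor, of which 1 of 16 was higher and 2 lower, *lys-7* and *fat-7*. *C14A4.9* fell by 0.35 ± 0.093 (adjusted p = 0.0787), with -0.09 ± 0.11 in *ahr-1(ju145)* and -0.57 ± 0.10 in wild-type.

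Of 271 nuclear hormone receptors, 8 were higher and 2 lower, shares of 2.95% and 0.738% that lie near those of all genes. The higher ones changed by 0.22 to 0.52. They include *nhr-8*, needed for resistance to toxins, with 0.22 ± 0.060 (adjusted p = 0.0805), and *nhr-31*, needed for the excretory cell, with 0.31 ± 0.056 (adjusted p = 0.00884). *ahr-1* itself had a change of -0.15 ± 0.090 and an adjusted p of 0.598, and its partner *aha-1* one of -0.05 ± 0.063. They belong to a list of 7 genes, of which 1 passed. *cysl-2*, a cysteine synthase-like gene of the hypoxia branch, rose by 0.37 ± 0.070 (adjusted p = 0.0105), with 0.49 ± 0.10 in *ahr-1(ju145)* and 0.28 ± 0.091 in wild-type.

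**Figure D4:**
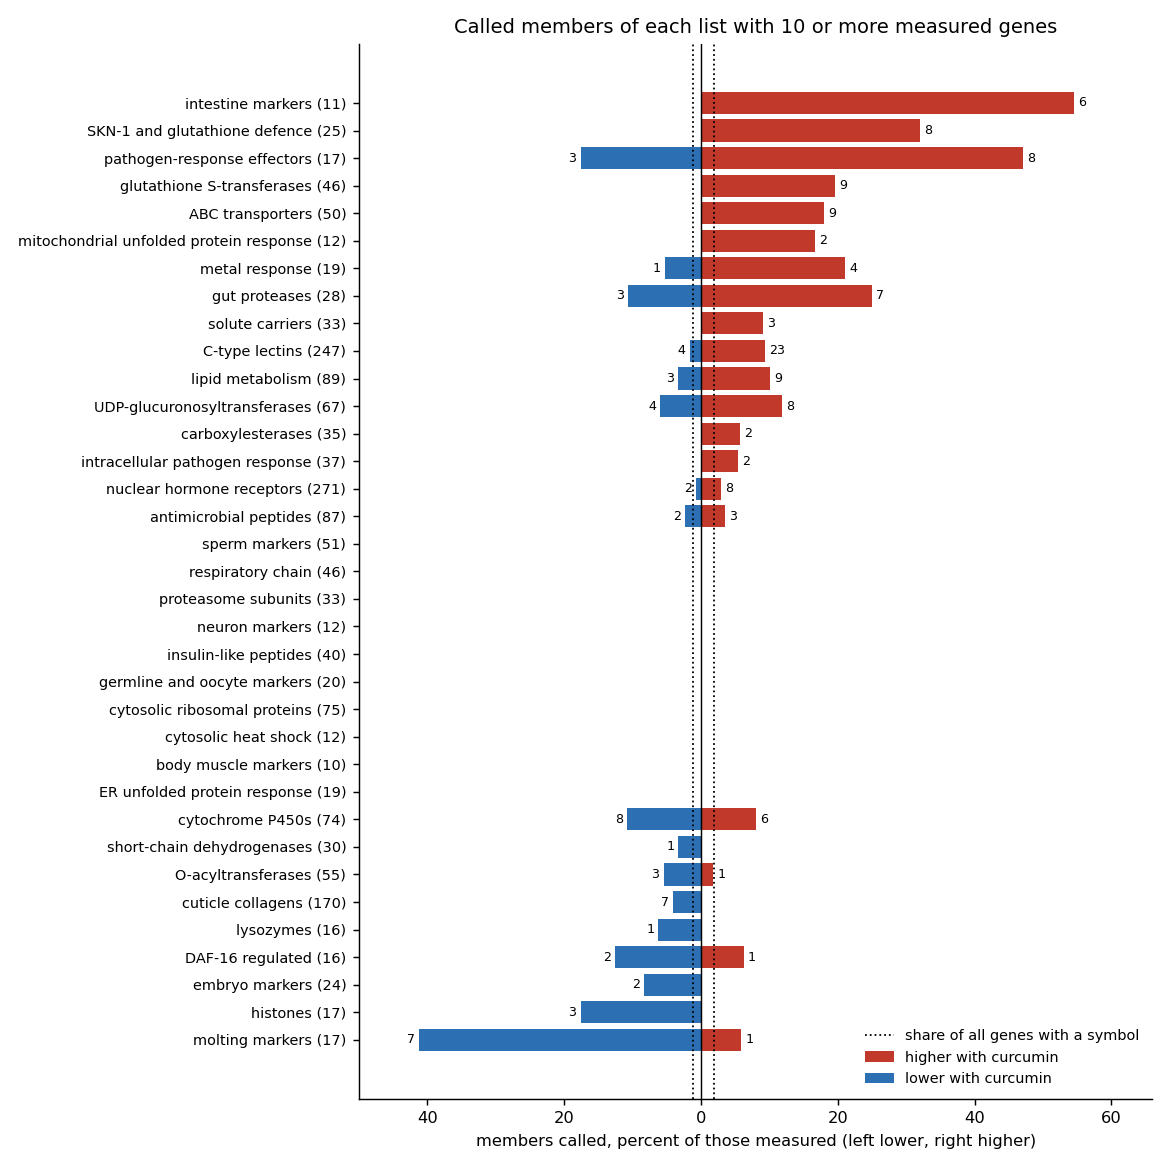
Members called higher (red, right) and lower (blue, left) with curcumin, in percent of the members measured (horizontal axis), for the lists with 10 or more measured genes. The number measured stands beside each name, the number called beside each bar, and dotted lines mark the shares of all genes with a symbol (1.92% higher and 1.23% lower).

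Of 11 intestine markers 6 rose and 0 fell, with a median of 0.14. The list was not uniform, as 2 members were below 0, the lowest at -0.17, and 1 was lower at an unadjusted p under 0.05. Of these 11, 1 was higher without the replicate number, and 1 with the molting or the embryo marker mean as a covariate. *pept-1*, the peptide transporter of the gut, ranged from 9.07 to 9.91 with curcumin (median 9.79) and from 8.80 to 9.58 with DMSO (median 9.12) and rose by 0.51 ± 0.071 (adjusted p = 0.00118). *act-5*, the actin of gut microvilli, rose by 0.34 ± 0.059 (adjusted p = 0.00712), the gut filament genes *ifb-2* and *ifc-2* by 0.33 ± 0.054 (adjusted p = 0.00424) and 0.30 ± 0.069 (adjusted p = 0.0366), the proton pump subunit *vha-6* by 0.26 ± 0.046 (adjusted p = 0.00716) and the membrane linker *erm-1* by 0.14 ± 0.038 (adjusted p = 0.0726). *elt-2* and *elt-7*, the GATA factors that define the gut, had 0.05 ± 0.084 and -0.10 ± 0.083 and did not pass. The mean of the list was 8.95 to 9.18 in *ahr-1(ju145)* with curcumin and 8.96 to 9.17 in wild-type with curcumin, against 8.66 to 9.11 in *ahr-1(ju145)* with DMSO and 8.71 to 9.04 in wild-type with DMSO. These ranges overlap in each strain. Many of the transporter, transferase, lectin and protease genes above are known from the gut, and the part of this shift in their changes was not tested.

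Of 17 molting markers, genes that worms express as they shed the cuticle, 7 fell and 1 rose. In the fit that omits the replicate number 1 was lower and 0 higher. Their median change was -0.19, at -0.04 in *ahr-1(ju145)* and -0.38 in wild-type, a difference that was not tested. The average of the list, unlike its median, was clearly lower with curcumin in both strains. It was 6.42 with curcumin and 6.70 with DMSO in *ahr-1(ju145)*, and 7.07 and 7.41 in wild-type. *noah-1* and *noah-2*, proteins of the outer matrix on which a new cuticle is built, fell by 0.67 ± 0.14 (adjusted p = 0.0214) and 0.69 ± 0.15 (adjusted p = 0.0267). *noah-1* read 8.21, 8.74, 8.12 and 8.62 in *ahr-1(ju145)* with curcumin and 9.82, 9.96, 8.86, 9.30 and 10.63 in wild-type with curcumin, against 9.56, 9.02, 8.99, 9.04 and 9.79 in *ahr-1(ju145)* with DMSO and 10.92, 10.11, 10.16, 9.88 and 10.63 in wild-type with DMSO, so that wild-type lay above *ahr-1(ju145)* for each treatment. *mlt-11* and *lpr-3* fell by 0.64 and 0.67, the fibrillin-like *fbn-1* by 0.63, and *mlt-8* and *wrt-10* by 0.58 and 0.56, while the protease *nas-37* rose by 0.29. *mlt-10*, *nhr-23* and *bli-5* had -0.01 ± 0.072, -0.05 ± 0.043 and 0.04 ± 0.064. The mean of the list was 6.23 to 6.57 in *ahr-1(ju145)* with curcumin and 6.57 to 7.62 in wild-type with curcumin, against 6.52 to 6.95 in *ahr-1(ju145)* with DMSO and 7.22 to 7.67 in wild-type with DMSO. Of 170 cuticle collagens, 7 were lower (4.12%, beside 1.23% of all genes with a symbol) and 0 higher. The list as a whole leaned the other way, with a median of 0.05, 112 members above 0 and 58 below. At an unadjusted p under 0.05, 19 were higher and 13 lower, and the largest change was a rise of 1.12 that did not pass. The 7 that passed were *dpy-17* (-0.77), *col-43* (-0.75), *sqt-3* (-0.57), *dpy-14* (-0.56), *dpy-3* (-0.53), *col-76* (-0.40) and *col-158* (-0.29). *hch-1*, a metalloprotease of hatching, fell by 0.93 ± 0.19 (adjusted p = 0.0183), and ranged from 6.36 to 9.63 with curcumin (median 7.72) and from 7.53 to 9.86 with DMSO (median 8.70).

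The epidermal factors *elt-1* and *nhr-25* fell by 0.27 ± 0.069 (adjusted p = 0.0613) and 0.44 ± 0.11 (adjusted p = 0.068), as 2 of 7 hypodermis markers. Of 24 embryo markers 2 fell (8.33%, beside 1.23% of all genes with a symbol) and 0 rose, with a median of -0.09. They were *hnd-1*, a factor of the embryonic mesoderm, with -0.39 ± 0.094 (adjusted p = 0.0467), and *sdz-28* with -0.25 ± 0.065 (adjusted p = 0.0656). The endoderm genes *end-1*, *end-3*, *med-1* and *med-2* had changes from -0.10 to 0.09. Of 17 histone genes 3 were lower, the linker histones *his-24* with -0.46 ± 0.087 (adjusted p = 0.0109) and *hil-3* with -0.44 ± 0.11 (adjusted p = 0.0499) and the H3-like *his-70* with -0.28 ± 0.059 (adjusted p = 0.0215), and the list had a median of -0.11. Omitting the replicate number left 0 hypodermis markers, 0 embryo markers and 2 histones past the threshold. The mean of the embryo markers was 5.82 to 5.94 in *ahr-1(ju145)* with curcumin and 5.78 to 6.16 in wild-type with curcumin, against 5.84 to 6.20 in *ahr-1(ju145)* with DMSO and 5.94 to 6.27 in wild-type with DMSO, overlapping in each strain.

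When the mean of the molting markers was added to the model, 74 probe sets were higher and 23 lower, and with the mean of the embryo markers 81 were higher and 23 lower. These fits were added after the data had been seen, and each covariate moves with the treatment. Of the 99 named genes that passed, 32 also did with the molting covariate and 35 with the embryo covariate. A lost call did not always go with a smaller change. With the molting covariate *ugt-9* was at 0.41 (adjusted p = 0.122) and *slc-17.5* at 0.46 (adjusted p = 0.236), beside 0.40 and 0.46 without it. By contrast, *noah-1* and *sqt-3* were at -0.23 and -0.09, beside -0.67 and -0.57. How many lost calls were of each kind was not tested. *pgp-1*, *C40H1.8*, *clec-169*, *ZK742.3*, *H43E16.1*, *numr-1*, *gst-4*, *ugt-48*, *lys-7*, *cyp-35A5*, *cyp-35D1* and *cyp-13A6* passed with each of them. *gst-4* had adjusted p of 0.0826 and 0.0578. With the molting covariate, 6 P450 genes remained lower and 1 higher, and 2 glutathione S-transferases and 4 lectins were higher. In that fit 0 collagens and 0 histones passed. The molting markers also had 0 that passed, which the fit nearly fixes in advance, since the covariate is their own mean. How much of the smaller changes goes with a difference in stage between the treated and control worms was not tested.

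**Figure D5:**
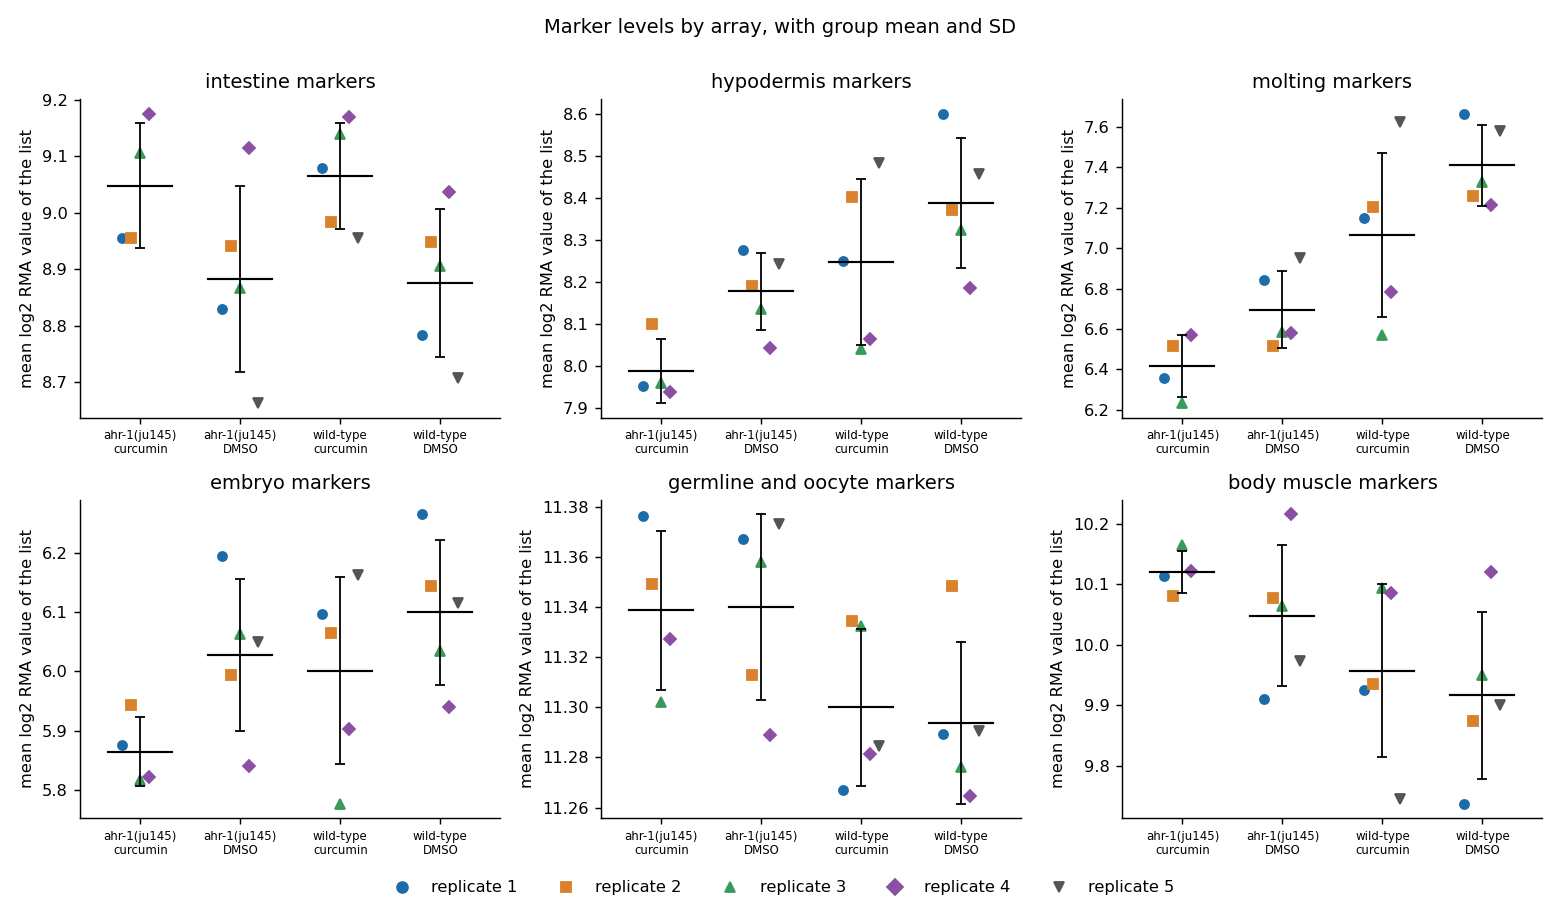
Mean log2 RMA value of 6 marker lists (vertical axes) in the 19 arrays, by group, with the mean and SD of each group. Colour and shape give the replicate number. Intestine means are mostly higher and molting, hypodermis and embryo means mostly lower with curcumin, with overlap between the treatments, and germline and muscle means show little difference.

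Several lists of stress and housekeeping genes had 0 calls in this limma fit. Among the 12 cytosolic heat shock genes found on the array, 0 had an unadjusted p under 0.05, and among 19 genes of the unfolded protein response of the endoplasmic reticulum 2 did, both lower. The 33 proteasome, 46 respiratory chain and 75 cytosolic ribosomal genes had 0 with an unadjusted p under 0.05, with medians of -0.02, 0.03 and 0.01. In the 40 insulin-like peptides 1 was higher and 1 lower at that level. Of 12 genes of the mitochondrial unfolded protein response, *lonp-1* and *dnj-10* rose, by 0.15 ± 0.040 (adjusted p = 0.0783) and 0.15 ± 0.037 (adjusted p = 0.0589), with a list median of 0.08.

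The number of calls rests on the replicate term. Without it, 193 probe sets were higher and 53 lower, and all 246 were also among the 871. Arrays with the same number tended to deviate together. The mean correlation of their deviations from the group means was 0.193 over 27 pairs of arrays from different groups. For arrays with different numbers it was -0.048, which is no separate baseline, since deviations from a group mean sum to 0 within the group. Of 19 arrays, 17 were matched best by their own number. In 6 of the 27 pairs the correlation was not above 0.1. Some of these are pairs of curcumin and DMSO within a strain, as used in the pair counts above. They are replicates 1 (0.057) and 3 (0.081) of *ahr-1(ju145)* and 1 (0.064) and 2 (0.0997) of wild-type. The remaining within-strain pairs had correlations of 0.111 to 0.383. What a number shares (a day, a batch of plates or nothing) is not given in the labels. Of the 99 named genes that passed, 54 also passed without the term, among them *pgp-1*, *clec-169*, *gst-4*, *ugt-48*, *numr-1*, *cyp-13A5*, *cyp-13A6*, *cyp-35A5* and *lys-7*. The 45 that did not include *irg-5*, *irg-4*, *pud-3*, *pud-4*, *fat-7*, *ugt-21*, *asp-8* and the collagens.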

How the data were processed

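Each of 20 pools of worms was measured on an Affymetrix array. The authors deposited log2 RMA values, which the methods credit to the oligo package in R (background correction, quantile normalisation and probe summary). Genome build and annotation are not given in the sources used here. Tables of the authors' own comparisons hold fold changes and p-values and were not used. Of 29317 probe sets, 25546 had a single gene symbol in the platform annotation, and 25495 of these symbols were found in the RefSeq gene table (WBcel235), used for chromosomes and neighbours. Arrays carry no depth, and their number limits the precision.

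limma 3.58.1 in R 4.3.3 was fitted to the 19 arrays with treatment, strain and replicate number as terms, leaving 12 residual degrees of freedom. Tests were two-sided, and p-values were adjusted by Benjamini-Hochberg over all probe sets, with a threshold of 0.1. The strains' own changes and their difference came from the same model with a treatment by strain term. The steps were tested on simulated data. Where several probe sets carried 1 symbol, the brightest on average stood for the gene. Replicates are described as independent, but what a replicate number shares is not stated. The p-values measure the spread between these pools that remains once treatment, strain and replicate number are fitted. Named genes were the 15 furthest changed in each direction among those that passed, the curcumin genes treated by the study, up to 4 passing members of each of 39 gene lists, the 3 genes with the lowest p for the strain difference, and *ahr-1*. Others were chosen after their values were seen. The members and lists were chosen with earlier results of these data known. A list of catechol O-methyltransferases had no member found by symbol. Alternatives covered the replicate term, the left-out array, normalisation, variance model, filters, thresholds, each array left out in turn and, added later, 2 marker covariates.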

Additional observations from a re-analysis of the deposited data

Results flagged for a closer look

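In 20 of 432 sets of arrays (a named gene in a group) the highest or lowest array lay apart from the rest of its group by Dixon's criterion, which chance alone reaches in about 1 in 20 sets. Among *ahr-1(ju145)* arrays with curcumin, *C40H1.8* was lowest in replicate 2 (6.19) and *gst-4* in replicate 4 (7.40), *oac-14* was highest in replicate 1 (6.46), and *ugt-57* was lowest in replicate 3 (4.52). Among wild-type arrays with curcumin, replicate 3 was highest for *cyp-13A8* (4.37) and lowest for *cyp-25A1* (5.17) and *T26C5.2* (3.52), replicate 4 was highest for *spp-14* (9.85), and replicate 5 was lowest for *dnj-10* (8.06). Among *ahr-1(ju145)* arrays with DMSO, replicate 4 stood apart most often. It was highest for *oac-14* (6.18), *spp-23* (7.99), *cysl-2* (6.69) and *ifb-2* (10.02) and lowest for *sdz-28* (8.18). In the same group *T19C9.8* was lowest in replicate 1 (3.65), *ahr-1* in replicate 2 (4.27) and *nhr-31* in replicate 5 (7.54), and *T26C5.2* was highest in replicate 5 (3.58). Among wild-type arrays with DMSO, *T16G1.4* was lowest in replicate 1 (4.19) and *ugt-21* highest in replicate 3 (6.53).

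Replicate 5 of *ahr-1(ju145)* with curcumin, which was left out of the 19 arrays and fitted only in the alternative with all 20, lay beyond every *ahr-1(ju145)* array with DMSO, on the side of the called change, for 19 of the 30 named genes with the largest change. There *pgp-1* read 9.005, *C40H1.8* 7.14, *clec-169* 7.26 and *ZK742.3* 8.84, within or near the range of the curcumin arrays that were tested. *B0024.4* read 3.49 and *gst-4* 7.34, each below every tested *ahr-1(ju145)* array with curcumin. The 30 genes were chosen with the same DMSO arrays, so the 19 are a description and no separate support. The same count was not made over all probe sets.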

How the results depend on the processing

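The counts of 517 higher and 354 lower probe sets moved by over 1.5 times under several alternatives. With no replicate block 193 were higher and 53 lower, and with the number as a random block 298 and 138. With the molting marker mean as a covariate 74 were higher and 23 lower, and with the embryo marker mean 81 and 23. An adjusted p under 0.05 kept 335 and 192, and a log2 change of at least 0.5 kept 98 and 71. All 20 arrays, array centring, repeated quantile normalisation, other variance models, array weights, the mean of the strains' own changes and the filters left both counts within 1.5 times. Leaving out each array in turn gave 351 to 508 higher and 207 to 434 lower. The lower count dropped by over 1.5 times without replicate 1 (234) or 3 (232) of curcumin-treated *ahr-1(ju145)*, 1 (222) or 3 (224) of curcumin-treated wild-type, 3 (227) of *ahr-1(ju145)* on DMSO, or 1 (226) or 3 (207) of wild-type on DMSO. The cause was not tested. The strain difference had 0 to 1 calls without an array, the 1 being without wild-type curcumin replicate 5, and 0 with no replicate block or with all 20 arrays.

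Of the 99 named genes that passed, 0 changed direction under any of 34 alternatives. The call was kept by 26 under every alternative, by 79 without any single array and by 99 with all 20 arrays. The 20 lost to a left-out array were *nhr-184*, *spp-23*, *pals-23*, *pals-36*, *slc-17.3*, *slc-25A37*, *cest-13*, *lonp-1*, *dnj-10*, *sdz-28*, *hnd-1*, *elt-1*, *nhr-25*, *C14A4.9*, *cdr-1*, *hil-3*, *dpy-14*, *sqt-3*, *mlt-11* and *lpr-3*, with adjusted p of at most 0.197. Values near 0 that did not pass changed sign. *cyp-42A1* was at -0.0154 with no replicate block, -0.0109 with the random block, -0.0421 with all 20 arrays, -0.0513 with the embryo covariate and -0.0428 to 0.0722 without single arrays. *T26C5.2* was at 0.0171 with the molting covariate and -0.147 to 0.0237 without single arrays, and *cyp-13B1* was at 0.0170 with the embryo covariate. Over the named genes, 446 of 3671 values under alternatives no longer passed, 2 newly passed and 18 changed sign, and 4 of 1326 list medians moved by over 1 SD between arrays. Arrays carry no read depth. Calls were fewest among dim probe sets.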

Other observations

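Families that share a gene name and lie outside the fixed lists were looked over after the values were seen, so their counts are a description. The family counts here and in the next paragraph stand beside 1.92% higher and 1.23% lower of all genes with a symbol. Homeobox genes named *ceh*, which specify cell fates in the embryo and the nervous system, had 7 of 64 lower and 0 higher with curcumin. They were *ceh-27* (-0.44 ± 0.086), *ceh-32* (-0.36 ± 0.076), *ceh-43* (-0.35 ± 0.083), *ceh-20* (-0.34 ± 0.087), *ceh-36* (-0.29 ± 0.077), *ceh-8* (-0.22 ± 0.057) and *ceh-39* (-0.17 ± 0.048). Of 91 *unc* genes, which have no function in common, 5 were lower and 0 higher, among them the neuronal factors *unc-42* (-0.40 ± 0.11) and *unc-3* (-0.33 ± 0.085) and the netrin *unc-6* (-0.32 ± 0.082). None of these 12 passed without the replicate number or with the molting or embryo marker mean as a covariate.

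Subunits of the vacuolar proton pump had 6 of 18 higher and 0 lower, from *vha-11* (0.14 ± 0.039) to *vha-6* (0.26 ± 0.046), and aquaporins, which are water and glycerol channels, had 5 of 12 higher and 0 lower. *aqp-4* was the furthest changed of them, with 0.42 ± 0.061 (adjusted p = 0.00169), and ranged from 8.09 to 8.67 with curcumin (median 8.34) and from 7.65 to 8.18 with DMSO (median 7.94). Without the replicate number 0 *vha* and 2 *aqp* genes passed, and with the embryo covariate 0 and 1. Transthyretin-related genes had 5 of 58 lower and 2 higher, led by *ttr-50* (-0.37 ± 0.071) and *ttr-34* (0.37 ± 0.086). The *nspg* genes had 4 of 14 higher and 1 lower, at -0.31 to 0.32.

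Calls were spread unevenly over the chromosomes. Of the genes with a symbol on chromosome IV 2.69% were higher and 1.02% lower, against 0.982% and 1.17% on chromosome I, with the others between 1.21% and 2.10% higher and 1.04% and 1.73% lower. Neighbours that passed did not always move together. *cyp-13A5* rose beside *cyp-13A6*, which fell, and *clec-184* rose (0.28 ± 0.073) beside *irg-4*, which fell, on chromosome IV. With the probe sets ranked by mean level and cut into 4 equal groups, 0.314% were higher and 0.532% lower in the dimmest group, and 3.17% and 2.02% in the brightest.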
